A study of Canis lupus familiaris with 4 samples.

Results

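The genes described here encode the nuclear part of the mitochondrial respiratory chain and the ATP synthase. They were taken by name from the probe sets that carry exactly 1 gene symbol: the *NDUFA*, *NDUFB*, *NDUFC*, *NDUFS* and *NDUFV* genes of complex I, *SDHA* to *SDHD* of complex II, the *UQCR* genes and *CYC1* of complex III, the *COX4* to *COX8* genes of complex IV and the *ATP5* genes of complex V. The rule found 71 of 15115 genes with a probe set on the array, measured by 140 probe sets, and the probe set with the highest mean intensity stood for each gene. Of the 71 genes, 63 encode subunits. The other 8, *NDUFAF1* to *NDUFAF7* and *ATP5IF1*, match the names but encode assembly factors and an inhibitor, and they are given as a class of their own.

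RNA was measured in MDCKII cells, an epithelial line from canine kidney, on 4 Affymetrix canine arrays with 1 array per condition. Control cells, called wild type in the labels and made with an empty shRNA cassette according to the study's methods, were compared with HIF2α-KD cells, in which a retrovirally delivered shRNA targets *EPAS1*, the gene of HIF2α. After 24 h in normoxia, both lines spent a further 24 h in either normoxia (16% O2) or hypoxia (1% O2), the oxygen levels being those of the methods. Control and knockdown are each 1 puromycin-selected line, the labels name no knockdown line while the study names HIF2α-KD#1 for its normoxic arrays, and a difference between the lines cannot be told apart from a difference between their selections.

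Electrons from NADH enter the chain at complex I and those from succinate at complex II, pass through complex III and cytochrome c, and reach oxygen at complex IV, while complex V uses the resulting proton gradient to make ATP. Complex I has a core of catalytic subunits that hold the flavin and the iron-sulfur clusters, surrounded by many accessory subunits. In hypoxia, cells are known to lower pyruvate entry into mitochondria through HIF targets such as *PDK1*, and a switch of the complex IV subunit COX4 from isoform 1 to isoform 2 has been described in cultured cells.

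The 4 arrays had similar scales, with median intensities of 28.2 to 29.1 and highest intensities of 18723 to 19831 on the linear scale. Background was read from 63 dim probe sets for reporter genes, whose 95th percentile lay between 20.6 and 27.2. Epithelial markers were abundant: 8 of the 9 measured were above that percentile on all 4 arrays, with a summed intensity of 32298 to 36199, while the summed markers of fibroblasts, endothelium, leukocytes and muscle lay between 112 and 226. In that order, 1 of 8, 1 of 5, 3 of 4 and 1 of 6 of the measured markers of these types exceeded the percentile on all arrays, *PDGFRA*, *CDH5*, *CD3E* and *MB* being the brightest. The fibroblast sum was 127 and 119 in normoxic control and HIF2α-KD cells and 226 and 164 in the hypoxic ones, and its part in the results was not tested. *EPAS1* had intensities of 44.6 in control normoxia, 47.9 on the normoxic array labelled HIF2α-KD, 116 in control hypoxia and 32.6 in HIF2α-KD hypoxia. It was therefore lower in the knockdown line in hypoxia but not in normoxia, so its level on the normoxic array goes against the knockdown label. This is a dim probe set, and the study reports lower *EPAS1* mRNA in its HIF2α-KD lines by RT-qPCR. The HIF2α-KD normoxia array enters the hypoxia difference of HIF2α-KD cells, the normoxic comparison of the lines and the limma fit. It does not enter the hypoxia difference of control cells.

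In control cells the respiratory chain genes were slightly lower in hypoxia, with the lowest medians among the complexes in I, II and III. Differences are given on the log2(intensity + 16) scale, and a gene was kept where its highest intensity reached 28.64, the median of the table. That left 69 of the 71 genes, and 9757 genes in all. No member differed by 2-fold or more, against 3.58% of all genes. At 1.5-fold, 6 members were lower, or 8.70% against 4.31% of all genes, and 0 were higher, against 10.2%. A difference below 0 was found for 51 of 69 members, 73.9% against 46.8% of all genes, and the median was -0.14 over the members and 0.03 over all genes. A pair of single arrays has no error, so these are values without a test.

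In HIF2α-KD cells the members lay closer to 0 by their median. Of the 69 members, 43 were below 0, 62.3% against 46.8% of all genes, and the median was -0.05 against 0.02. At 1.5-fold, 0 were lower and 0 higher, against 2.69% and 5.47% of all genes, and 0 members reached 2-fold, against 1.8%. The hypoxia differences of the lines share no array. Both were below 0 for 39 members, 56.5% against 29.8% of all genes. Of the 51 below 0 in control cells these were 76.5%, against 63.6% of all genes below 0 there. In 14 members both lay above 0, 20.3% against 36.1%. Across the 69 members the differences in the 2 lines had a Pearson r of 0.717, and across all genes of 0.526. This is a correlation across genes, which are not independent replicates. *COX4I2*, which passed the filter only through the HIF2α-KD normoxia array, is among the 51, the 43 and the 39 and enters the correlation. Without it, a choice made after seeing the data, the medians were -0.14 in control and -0.05 in HIF2α-KD cells. The correlation was not computed without *COX4I2*.

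**Figure D1:**
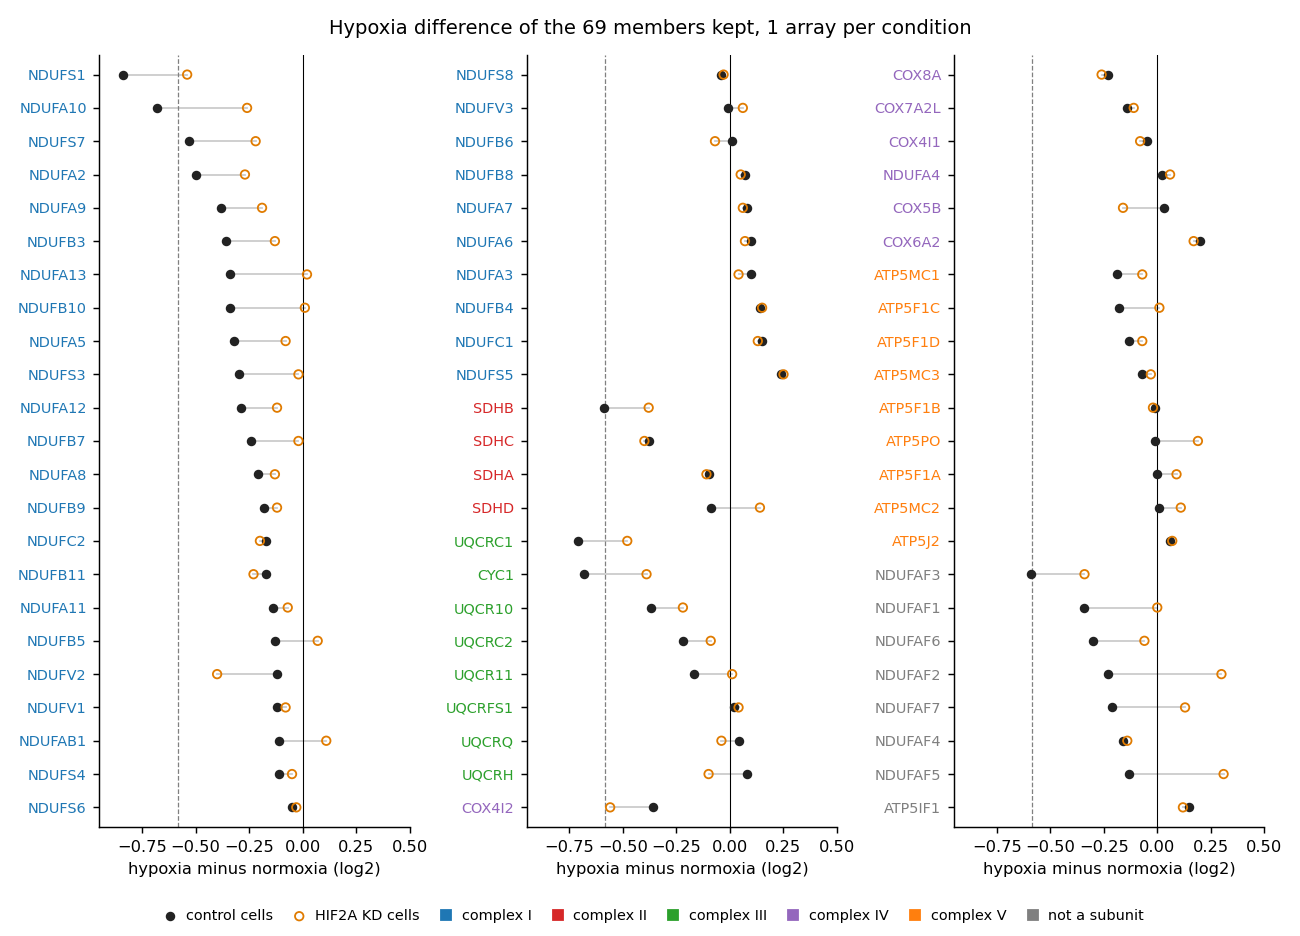
Hypoxia minus normoxia on the log2(intensity + 16) scale for each of the 69 members kept, in control cells (filled points) and in HIF2α-KD cells (open points), with 1 array per condition and no error. Genes are ordered within each complex by the value in control cells, name colours give the complex, and the dashed line marks 1.5-fold lower. The lowest value is that of *NDUFS1* in control cells, and 51 filled points lie below 0.

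Read by intensity alone, both hypoxic arrays lay below both normoxic arrays for 30 of 69 members, 43.5% against 22.6% of all genes. These were 13 of 33 in complex I, 3 of 4 in complex II, 4 of 8 in complex III, 3 of 7 in complex IV, 3 of 9 in complex V and 4 of 8 of the assembly factors and inhibitor. *COX4I2* of complex IV is among them and passed the filter only through a normoxic array. Without it, a choice made after seeing the data, the counts were 29 of 68 members, 42.6%, and 2 of 6 in complex IV. The opposite order was found for 9 members, 13.0% against 27.1% of all genes. They were *NDUFS5*, *NDUFC1*, *NDUFB4*, *NDUFB8* and *NDUFA7* of complex I, *UQCRFS1* of complex III, *ATP5F1A* and *ATP5MC2* of complex V, and *ATP5IF1*. For *UQCRFS1*, *ATP5F1A* and *NDUFA7* the other kept probe set had the reverse order, with both hypoxic arrays below both normoxic ones. Its intensities in *ATP5F1A* were 8879 and 8612 in normoxia and 7861 and 8371 in hypoxia, and in *NDUFA7* 1839 and 1858 against 1782 and 1635.

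The only test the design allows is a limma fit over the 4 arrays with an oxygen term and a cell line term. It has 1 residual degree of freedom, assumes the same hypoxia difference in both lines, and uses the arrays of every comparison above. The oxygen term passed an adjusted p of 0.05 (Benjamini-Hochberg over 9757 genes) in 40 genes that fell, 0.41%, and in 240 that rose, 2.46%. Among the 69 members 1 fell, *UQCRC1*, and 0 rose. At an unadjusted p under 0.05, 11 members were lower, 15.9% against 7.45% of all genes, and 1 was higher, *NDUFS5*, or 1.45% against 13.1%. *UQCRC1* was called by quantile, median-centred and robust alternatives too, but not after cyclic loess normalization, with no intensity filter or without the intensity trend. There, its limma adjusted p was 0.0559, 0.110 and 0.116.

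The catalytic core of complex I had all 6 measured members below 0 in both lines, with medians of -0.21 in control and -0.15 in HIF2α-KD cells. *NDUFS1*, the large iron-sulfur subunit of the NADH-oxidizing arm, had intensities of 815 in control normoxia, 674 in HIF2α-KD normoxia, 447 in control hypoxia and 459 in HIF2α-KD hypoxia. Both hypoxic arrays were well below both normoxic arrays. The difference was -0.84 in control cells, 0.557-fold and the lowest of all members, and -0.54 in HIF2α-KD cells. The limma oxygen term was -0.69 ± 0.152 (SE) with an adjusted p of 0.0690, which missed the threshold. It passed under quantile normalization, median centring and robust moderation.

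*NDUFS7*, which holds the iron-sulfur cluster next to the quinone site, was just short of 1.5-fold in control cells. Its intensities were 2321 and 1892 in normoxic control and HIF2α-KD cells and 1600 and 1617 in the hypoxic ones, a difference of -0.53 and -0.22 respectively. The other core subunits differed less in control cells. *NDUFS3*, a subunit of the arm that leads to quinone, was at -0.30, *NDUFV1*, which binds NADH and the flavin, at -0.12, and its partner *NDUFV2* also at -0.12. *NDUFS8*, a further iron-sulfur subunit, was at -0.04. *NDUFV2* was the core gene with a larger difference in the knockdown line, -0.40, with intensities of 3484 in normoxia and 2636 in hypoxia there, against 2872 and 2632 in control cells.

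The 27 accessory subunits of complex I lay on both sides of 0, around a median of -0.14 in control and -0.03 in HIF2α-KD cells, with 19 and 15 of them below 0. *NDUFA10*, an accessory subunit of the membrane arm related to nucleoside kinases, had intensities of 980 in control normoxia, 884 in HIF2α-KD normoxia, 607 in control hypoxia and 734 in HIF2α-KD hypoxia. Both hypoxic values were lower, the control one more so. The differences were -0.68 and -0.26, and the limma oxygen term of -0.47 ± 0.159 (SE) had an adjusted p of 0.165. *NDUFA2*, a small subunit of the matrix arm, followed with 4051 and 3960 in normoxia and 2859 and 3280 in hypoxia, or -0.50 and -0.27.

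At the other end of complex I stood *NDUFS5*, a subunit on the intermembrane-space side. It had 5091 in control normoxia, 5001 in HIF2α-KD normoxia, 6006 in control hypoxia and 5961 in HIF2α-KD hypoxia, so that the hypoxic arrays were higher by nearly the same amount in both lines. The differences were 0.24 and 0.25, the highest of the members in control cells, and the limma oxygen term of 0.25 ± 0.0882 (SE) had an adjusted p of 0.187. *NDUFC1*, a small membrane-arm subunit, was at 0.15 and 0.13 by its brightest probe set. A dimmer one that passed the filter was at -0.26 in control cells, and the mean of its probe sets was at -0.05, so its direction depends on the probe set.

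**Figure D2:**
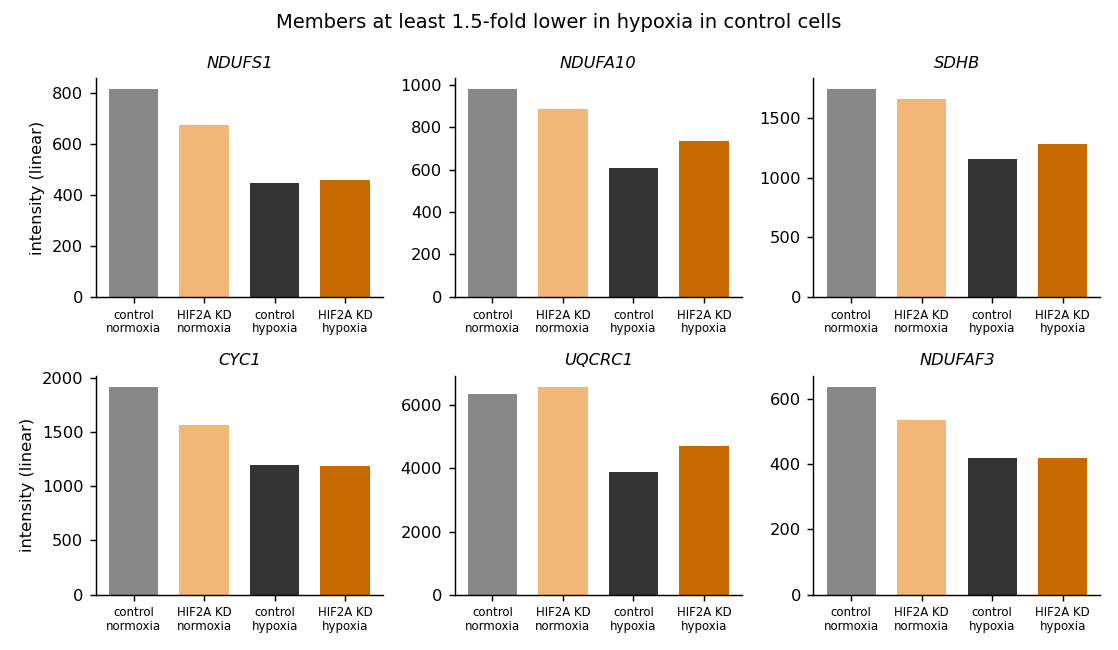
Intensity on a linear axis from 0 on each of the 4 arrays for the 6 members that were at least 1.5-fold lower in hypoxia in control cells, 1 array per bar and no error. In all 6 genes both hypoxic bars are below both normoxic bars, and in HIF2α-KD cells none of the 6 reached 1.5-fold.

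All 4 subunits of complex II, which is also the succinate dehydrogenase of the citric acid cycle, were below 0 in control cells and 3 were in HIF2α-KD cells, with a median of -0.24 in both. *SDHB*, the iron-sulfur subunit, had 1743 in control normoxia, 1661 in HIF2α-KD normoxia, 1155 in control hypoxia and 1277 in HIF2α-KD hypoxia. The difference of -0.59 in control cells was just inside 1.5-fold, and it was -0.38 in HIF2α-KD cells. *SDHC*, a membrane anchor, had 1991 and 2070 in normoxia and 1528 and 1569 in hypoxia, or -0.38 and -0.40. Its other probe sets, at -0.40 and -0.22 in control cells, were at -0.26 and -0.06 in HIF2α-KD cells, so the size in the knockdown line depends on the probe set. The flavin-binding catalytic subunit *SDHA* was at -0.10 and -0.11. The other anchor, *SDHD*, was at -0.09 in control and 0.14 in HIF2α-KD cells. The limma oxygen terms of *SDHB* and *SDHC* had adjusted p-values of 0.112 and 0.141.

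Complex III was divided between a few clearly lower subunits and several close to 0. *UQCRC1*, a core protein on the matrix side, had 6369 in control normoxia, 6599 in HIF2α-KD normoxia, 3884 in control hypoxia and 4727 in HIF2α-KD hypoxia. The hypoxic arrays were below the normoxic ones by -0.71 and -0.48, and the limma oxygen term was -0.60 ± 0.0999 (SE) with an adjusted p of 0.0343. *CYC1*, the cytochrome that hands electrons on to cytochrome c, had 1919, 1568, 1194 and 1190 in the same order. Its differences were -0.68 and -0.39, with a limma adjusted p of 0.0949.

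The small subunit *UQCR10* was at -0.37 and -0.22, and the other core protein *UQCRC2* at -0.22 and -0.09. The Rieske iron-sulfur protein *UQCRFS1* had nearly level intensities of 7115 and 6923 in normoxia and 7197 and 7137 in hypoxia on its brightest probe set, but the other kept one was at -0.28 and -0.08. *UQCRQ*, a small subunit near the quinone sites, was at 0.04 and -0.04, and *UQCRH*, the hinge protein at the cytochrome c side, at 0.08 and -0.10. The median of the 8 complex III genes was -0.20 in control and -0.10 in HIF2α-KD cells.

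In control cells, complexes IV and V had medians closer to 0. The 7 kept genes of complex IV had medians of -0.05 in control and -0.11 in HIF2α-KD cells, and of -0.02 and -0.09 without *COX4I2*. *COX8A*, a small structural subunit, had 3941 in control normoxia, 4047 in HIF2α-KD normoxia, 3358 in control hypoxia and 3366 in HIF2α-KD hypoxia, or -0.23 and -0.26. Its 3 other probe sets were also below 0 in both lines. *COX5B*, a matrix-side subunit, was at 0.03 and -0.16.

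The 9 genes of complex V, the ATP synthase, had medians of -0.01 and 0.01, with values between -0.19 and 0.06 in control cells. The catalytic beta subunit *ATP5F1B* had 13217 and 13272 in normoxia and 13155 and 13125 in hypoxia. *ATP5F1A*, the alpha subunit, was at 0.00 and 0.09. *ATP5F1C*, the central stalk's gamma subunit, was at -0.18 in control and 0.01 in HIF2α-KD cells, and *ATP5PO*, which ties the head to the peripheral stalk, at -0.01 and 0.19. *ATP5J2*, a subunit of the membrane sector, was at 0.06 and 0.07. The smallest limma adjusted p of the oxygen term was 0.229 in complex IV and 0.465 in complex V.

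**Figure D3:**
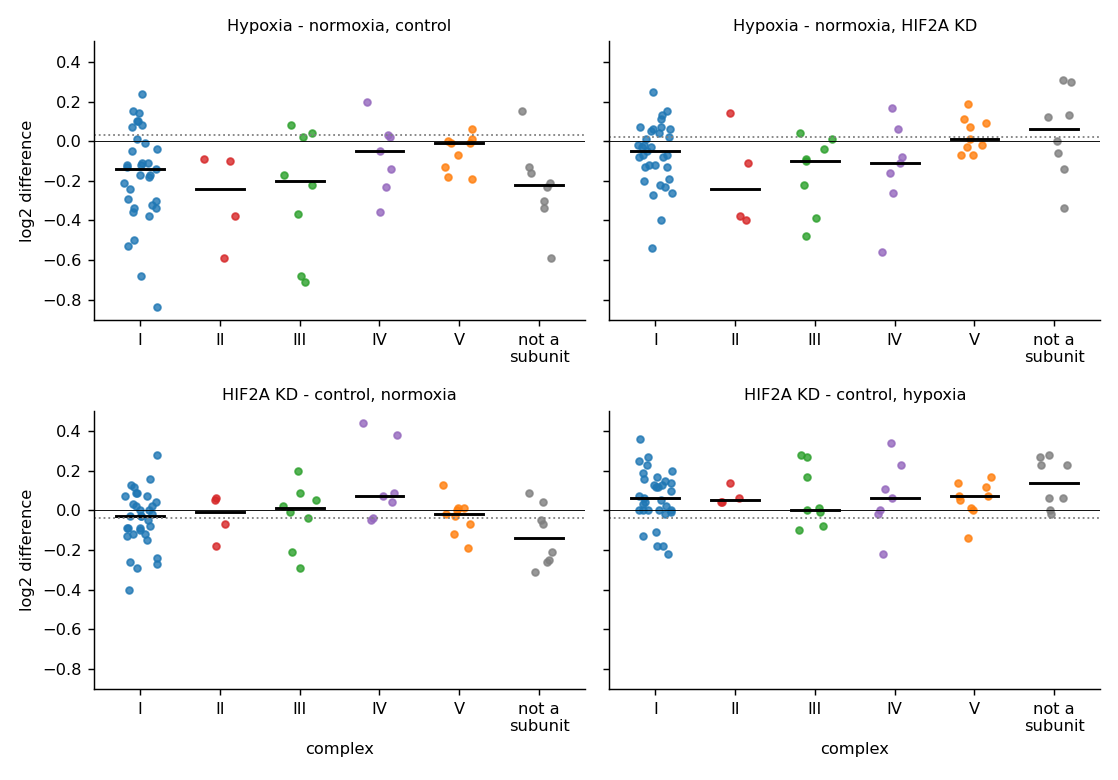
Log2 differences of the 69 members by complex in the 4 pairwise comparisons, 1 point per gene, with the median of each complex as a black bar and the median of all 9757 genes as a dotted line. In control cells the hypoxia medians of complexes I, II and III are at -0.14, -0.24 and -0.20 and that of complex V at -0.01.

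Neither COX4 isoform was higher in hypoxia on these arrays. *COX4I1*, the ubiquitous isoform, had 7811 in control normoxia, 8334 in HIF2α-KD normoxia, 7539 in control hypoxia and 7882 in HIF2α-KD hypoxia, or -0.05 and -0.08. *COX4I2*, the isoform known for induction by hypoxia, had 22.1, 35.5, 13.7 and 18.8 in the same order. It was above the reporters' 95th percentile only on the HIF2α-KD normoxia array and passed the filter only through it, so that its differences of -0.36 and -0.56 lie near background. Its other probe set did not pass. *LONP1*, the matrix protease known to degrade COX4 isoform 1 in hypoxia, rose, with 514 and 400 in normoxia and 1062 and 816 in hypoxia and a limma adjusted p of 0.0193.

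*NDUFA4L2*, a hypoxia-inducible paralog of the complex IV subunit *NDUFA4*, did not pass the filter, with 15.5 and 11.2 in normoxia and 4.13 and 1.71 in hypoxia, all below the reporters' 95th percentile of their arrays. *NDUFA4* itself had 7764 and 8140 in normoxia and 7867 and 8469 in hypoxia. The muscle isoform *COX7A1* was at 2.67 in control normoxia and at the table's lowest value of 1 on the other 3 arrays, and did not pass. *COX6A2*, the other muscle isoform, was dim but above the reporters' percentile on all arrays, with 30.2 and 44.0 in normoxia and 37.3 and 51.4 in hypoxia. *COX7A2L*, known for its part in supercomplexes, had 1942 and 1877 in normoxia and 1764 and 1743 in hypoxia.

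The genes *ATP5MC1*, *ATP5MC2* and *ATP5MC3* encode the same mature c subunit of the ATP synthase ring with different import sequences. *ATP5MC1* was the lowest of complex V in control cells, with 5695 in control normoxia, 5705 in HIF2α-KD normoxia, 4990 in control hypoxia and 5418 in HIF2α-KD hypoxia, or -0.19 and -0.07. *ATP5MC2* was at 0.01 and 0.11 and *ATP5MC3* at -0.07 and -0.03. The genes *COX6A1*, *COX6B1*, *COX6B2*, *COX7A2*, *COX7B*, *COX7B2* and *COX8C* of the remaining pairs were not analysed here.

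**Figure D4:**
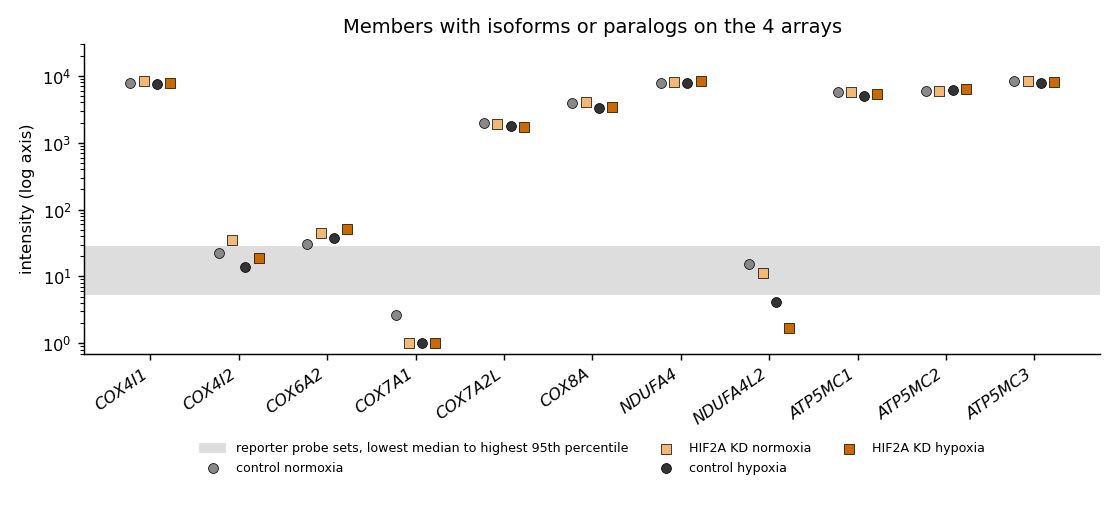
Intensity on a log axis of the members with isoforms or paralogs on the 4 arrays, 1 point per array and no error. Grey shading covers the background, between the smallest reporter median (5.48) and the largest reporter 95th percentile (27.2). *COX4I2*, *COX7A1* and *NDUFA4L2* lie in or below the band on the hypoxic arrays. Levels of different genes are not comparable on this scale.

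The medians of the complex I assembly factors lay apart in the 2 lines, a gap that was not tested. All 7 *NDUFAF* genes were below 0 in control cells, with a median of -0.23, and 4 of 7 were in HIF2α-KD cells, with a median of 0.00. *NDUFAF3*, which acts in building the quinone-binding module, had 637 in control normoxia, 534 in HIF2α-KD normoxia, 418 in control hypoxia and 419 in HIF2α-KD hypoxia. Its differences were -0.59 and -0.34. *NDUFAF1*, a factor for the membrane arm, was at -0.34 and 0.00.

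*NDUFAF2*, a paralog of the subunit *NDUFA12* that binds late assembly intermediates, had 6857 in control normoxia, 5531 in HIF2α-KD normoxia, 5831 in control hypoxia and 6835 in HIF2α-KD hypoxia. The high arrays were thus control normoxia and HIF2α-KD hypoxia, and its other probe set had the same order. *NDUFAF5*, which modifies *NDUFS7* protein, was at -0.13 and 0.31, but 1 of its other probe sets was at 0.11 and 0.32 and the other at -0.19 and -0.07. *ATP5IF1*, the inhibitor of ATP hydrolysis by complex V, was at 0.15 and 0.12.

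Between the lines the members differed little. In normoxia 40 of 69 were lower on the array labelled HIF2α-KD, 58.0% against 56.5% of all genes, with a median of -0.03 against -0.04, and 0 members reached 2-fold, against 1.16%. At 1.5-fold, 0 members were higher and 0 lower, against 2.45% and 3.55% of all genes. In hypoxia 52 of 69 were higher in HIF2α-KD cells, 75.4% against 44.3% of all genes, with a median of 0.06 against -0.04, and 0 members reached 2-fold, against 0.974%. Neither direction held a member at 1.5-fold there, against 1.62% of all genes higher and 4.92% lower. The hypoxic comparison does not use the array on which *EPAS1* goes against the label. The limma cell line term called 0 members and 0 genes in all at an adjusted p under 0.05. Alternatives called up to 21 genes, under robust moderation, and 0 members. The smallest adjusted p was 0.0571 over all genes and 0.569 over the members. Without adjustment, p was under 0.05 in 939 genes, 9.62%, and in 0 members.

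The members at the ends of their complexes were of mixed roles. The highest value in normoxia was that of *COX4I2*, 0.44, near background, followed by the dim *COX6A2* at 0.38, which was at 0.34 in hypoxia. The other kept probe set of *COX6A2* was at 0.01 in normoxia and -0.22 in hypoxia, so its difference depends on the probe set. The lowest value in normoxia was that of *NDUFB7*, an accessory subunit on the intermembrane-space side. It had 663 in control cells and 500 on the array labelled HIF2α-KD, or -0.40. *NDUFV2*, the highest of complex I, was at 0.28. In complex III *CYC1* was lowest, at -0.29, and among the assembly factors *NDUFAF2*, at -0.31. In hypoxia *NDUFA13*, an accessory subunit also known as a cell death regulator, had 2269 in control and 2921 in HIF2α-KD cells, or 0.36. *COX5B* had 6366 and 5456 there, or -0.22, and *NDUFV1* was also at -0.22. In complex III the highest hypoxic value was that of *UQCRC1*, 0.28. *ATP5F1D*, the delta subunit of complex V, was at -0.19 in normoxia and -0.14 in hypoxia on its brightest probe set and at -0.30 and 0.09 on the other, so the hypoxic direction depends on the probe set.

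No array is shared by the normoxic and the hypoxic knockdown difference, and both were above 0 in 28 members, 40.6% against 21.6% of all genes. Of the 29 members above 0 in normoxia, 28 were also above 0 in hypoxia, 96.6% against 49.5% of all genes. Whatever their sign in normoxia, 75.4% of the 69 members were above 0 in hypoxia and 24.6% below. *COX4I2*, which passed the filter only through the HIF2α-KD normoxia array, is among both the 29 and the 28. Of the 40 below 0 in normoxia, 16 were also below 0 in hypoxia, 40.0% against 59.7%. Across the members the pair of differences had a Pearson r of 0.347 and across all genes of 0.170. *COX4I2* also enters the members' correlation, at 0.44 in normoxia and 0.23 in hypoxia, and r was not computed without it. The hypoxia difference was more negative in control than in HIF2α-KD cells for 49 of 69 members, 71.0% against 49.6% of all genes. This difference between the lines has no residual degree of freedom and was not tested.

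Other probe sets of the same genes gave a further reading on the same RNA, which is no replicate. Of 60 other kept probe sets of 42 members, 48 had the sign of the brightest one for hypoxia in control cells, 80.0%, and 45 did in HIF2α-KD cells. For the members at or below -0.3 in control cells, all 12 other probe sets, of 9 genes, were below 0. The other probe set of *UQCRC1* had 2912 and 2893 in normoxia and 1722 and 1844 in hypoxia, and that of *NDUFA10* had 607 and 533 against 319 and 385. The 3 others of *NDUFS1* were at -0.69, -0.52 and -0.41 in control cells, all smaller in size than the brightest. In *NDUFB6*, an accessory subunit, the brightest probe set was at 0.01 and a much dimmer one at -0.65.

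**Figure D5:**
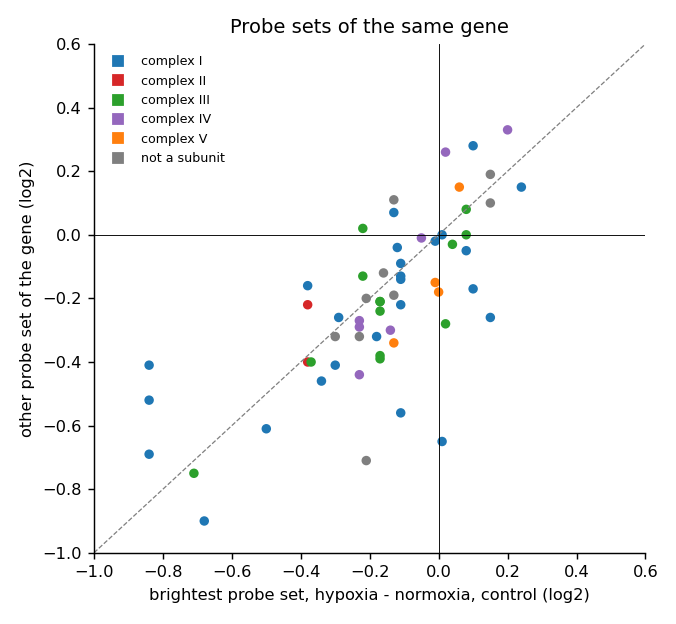
Hypoxia minus normoxia in control cells (log2) of the 60 other kept probe sets against that of the brightest probe set of the same gene, coloured by complex. The dashed line marks equal values. Points lie in the lower left for the members with the lowest values, and 48 of 60 have the same sign on both axes.

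The complexes also differ in brightness on the array, and the dimmer members had the lower median. Median mean intensities were 2446 for complex I, 1624 for complex II, 4516 for complex III, 3678 for complex IV and 6075 for complex V. The 34 members dimmer than 2906 had a median hypoxia difference of -0.19 in control cells, with 30 below 0 and 5 lower by 1.5-fold. Of all genes in their range 47.0% were below 0 and 4.21% lower by 1.5-fold. That range starts at *NDUFAF5*, with a mean intensity of 234, and so leaves out the levels of *COX4I2* and *COX6A2*. The 35 brighter members had a median of -0.05, with 21 below 0 and 1, *UQCRC1*, lower by 1.5-fold. Of all genes in their range 53.0% were below 0 and 2.12% lower by 1.5-fold. The part of brightness in the order of the complexes was not tested.

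The other gene lists of mitochondrial function set these values in their setting. A list of 16 genes linked to HIF, many of them acting on mitochondria or glycolysis, had 14 that passed the filter, without *BNIP3* and *CA9*. Of these 14, 10 rose with the limma oxygen term, against 2.46% of all genes, and 0 fell, against 0.41%. The medians were 1.16 in control and 0.95 in HIF2α-KD cells. *PDK1*, the kinase that shuts off pyruvate dehydrogenase, had 438 in control normoxia, 303 in HIF2α-KD normoxia, 2956 in control hypoxia and 2711 in HIF2α-KD hypoxia (limma adjusted p = 0.000706). *BNIP3L*, a mitophagy receptor, had 403 and 244 in normoxia and 1706 and 1220 in hypoxia (limma adjusted p = 0.00197). *HIGD1A*, also counted among the assembly factors, was at -0.22 and -0.33.

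Of 34 measured among 46 listed assembly factors outside the name rule, 0 passed in either direction, against 2.87% of all genes. The smallest limma adjusted p was 0.0732, and the medians were -0.15 in control and 0.01 in HIF2α-KD cells. *FOXRED1*, a complex I assembly factor, had 1419 and 1093 in normoxia and 724 and 783 in hypoxia, or -0.96 and -0.47. *TTC19*, which acts on complex III, was at -0.81 and -0.27. In this list 23 of 34 genes were below 0 in control cells, 67.6%, and 16 of 34 in HIF2α-KD cells, 47.1%. Of all genes 46.8% were below 0 in each line.

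Of 13 measured among 19 factors of mitochondrial gene expression and biogenesis, 1 fell and 1 rose with the limma oxygen term. Of all genes 0.41% fell and 2.46% rose. *POLG2*, the accessory subunit of the mitochondrial DNA polymerase, had 313 and 293 in normoxia and 166 and 161 in hypoxia, and *MYC*, a transcription factor that also drives mitochondrial genes, 654 and 391 in normoxia and 1136 and 766 in hypoxia. Both had a limma adjusted p of 0.0338. *TWNK*, the mitochondrial DNA helicase, was at -1.09 in control and -0.22 in HIF2α-KD cells, with intensities of 47.8 and 29.4 in normoxia and 13.9 and 22.9 in hypoxia, which reach the reporters' range. The list median was 0.10 in control and -0.03 in HIF2α-KD cells. The subunits encoded in mitochondrial DNA were not analysed here.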

How the data were processed

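Total RNA of 4 samples (100 ng each) was labelled with a 3′ IVT kit and hybridized to Affymetrix canine arrays. The deposited table of the authors holds 1 linear intensity per probe set and array. How the probes were summarized, background-corrected and scaled is not given in the sources used here. Of 42924 probe sets, 29254 have 1 gene symbol in the platform annotation, 439 several and 13167 none besides the 64 reporters, of which the 63 below an intensity of 100 served as background. Of the members, 69 of 71 gene identifiers were found in RefSeq's gene table.

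Values were taken as log2(intensity + 16), which understates differences of dim genes, with no further scaling. The filter kept 9757 genes. With 1 array per condition, pairwise differences have no test. Additive fits of oxygen and cell line used limma 3.58.1 in R 4.3.3 with an intensity trend and Benjamini-Hochberg adjustment, tested on simulated data. The number of arrays limits the precision, and p-values measure only the spread left by this fit.

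The members and lists were chosen with earlier results of these data known. Named were *EPAS1*, members called by limma or differing by 2-fold, isoform pairs, the extremes of each complex in each comparison, and from each further list those at 2-fold or the 2 largest; other genes were chosen after their values were seen. Alternatives were other normalizations, filters, pseudocounts (1 and 64), probe set summaries, eBayes settings and subunits alone.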

Additional observations from a re-analysis of the deposited data

Results flagged for a closer look

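In 4 members the hypoxia differences of the lines had opposite signs, each at least as large as 0.0960, the pooled residual SD of the members in the additive fit. They were *NDUFAF2* (-0.23 in control and 0.30 in HIF2α-KD cells), *NDUFAF5* (-0.13 and 0.31), *NDUFAF7*, a methyltransferase that acts on complex I (-0.21 and 0.13), and *NDUFAB1*, the mitochondrial acyl carrier protein (-0.11 and 0.11). Another kept probe set of *NDUFAF7* was at -0.71 and -0.01, and another of *NDUFAB1* at -0.56 and -0.47, without opposite signs. The other kept probe sets of *NDUFAF5*, at 0.11 and 0.32 and at -0.19 and -0.07, also lacked opposite signs. The remaining kept probe sets of *NDUFAF2*, *NDUFAF7* and *NDUFAB1* had opposite signs. In 6 members the knockdown differences had opposite signs by the same measure, negative in normoxia and positive in hypoxia. These were *NDUFAF2* (-0.31 and 0.23), *NDUFAF5* (-0.21 and 0.23), *NDUFA10* (-0.15 and 0.27), *NDUFB10* (-0.24 and 0.12), *NDUFS3* (-0.12 and 0.17) and *NDUFB3* (-0.12 and 0.10). How many of all genes meet the same measure was not counted, so these numbers have no background share beside them. In the additive fit the residual comes only from the gap between the lines' hypoxia differences. The measure is therefore not independent of the values it flags. The differences between lines or oxygen conditions were not tested, since each rests on 4 single arrays, and all of them use the HIF2α-KD normoxia array, on which *EPAS1* was not lower.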

How the results depend on the processing

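No paired analysis was possible because each condition has 1 array and so no replicate number to block on, although the additive fit itself compares oxygen within each line. For the same reason no array could be left out. Of the recomputed summary values 156 stayed close to the value reported, and 14 moved. Close meant inside the 95% binomial interval of a share, within the members' residual SD of a median, or within 1.5-fold of a count. For shares, direction was not part of this measure. In normoxia 47.8% of members were lower on the array labelled HIF2α-KD after quantile normalization and 49.3% after cyclic loess. Both counted as close to the 58.0% reported. Of the values of single genes 452 stayed close, 28 moved, 3 no longer passed the test and 1 reversed. In control cells 84.1% of members were below 0 in hypoxia after quantile normalization (55.1% of all genes), and 6 members passed at 1.5-fold in place of 0 at 2-fold. In HIF2α-KD cells 1 member in place of 0 was 1.5-fold lower after quantile normalization (*NDUFS1*), with no intensity filter (*NDUFA4L2*) and with a pseudocount of 1 (*COX4I2*). For the lines in hypoxia, 13.0% of members were below 0 after quantile normalization and 13.0% after cyclic loess, in place of 24.6%, and the quantile median was 0.16. The oxygen term called 2 members (*NDUFS1* and *UQCRC1*) after quantile normalization, 2 with median centring and 2 with robust moderation, and 0 after cyclic loess, 0 with no filter and 0 without the trend. The oxygen term of *UQCRC1* was -0.57 after cyclic loess, -0.60 with no filter and -0.60 without the trend. Over all genes that term called 280, against 492 after quantile normalization, 163 after cyclic loess, 435 with median centring, 460 with robust moderation, 101 without the trend and 70 with no filter. The cell line term called 0 genes, against 19 after quantile normalization, 15 with median centring, 10 and 4 with pseudocounts of 1 and 64 and 21 with robust moderation, with 0 members in each. The value of *NDUFC1* in control cells turned to -0.05 with the mean of its probe sets. For these changes the cause was not tested. Genes near the reporters' 95th percentile, *COX4I2* and *COX6A2* among the members, have little signal above background.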

Other observations

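A further list held the citric acid cycle and the mobile electron carriers that feed the chain. Of 22 measured among 24 listed genes, 1 rose and 0 fell with the limma oxygen term, against 2.46% and 0.41% of all genes. The medians were -0.21 in control and -0.05 in HIF2α-KD cells, against 0.03 and 0.02 over all genes. In control cells 18 of 22 were below 0, 81.8%, and in HIF2α-KD cells 14 of 22, 63.6%. Of all genes 46.8% were below 0 in each line. *IDH2*, the NADP-dependent mitochondrial isocitrate dehydrogenase, had intensities of 3653 in control normoxia, 3738 in HIF2α-KD normoxia, 7954 in control hypoxia and 7369 in HIF2α-KD hypoxia. Its limma oxygen term was 1.05 ± 0.0933 (SE) with an adjusted p of 0.00496. Of the NAD-dependent enzyme of the same reaction no subunit passed the test, with *IDH3B* at -0.81 and -0.46 (limma adjusted p = 0.0829), *IDH3A* at -0.48 and -0.27 and *IDH3G* at -0.11 and -0.06. *SUCLA2*, a succinyl-CoA ligase subunit, was at -0.87 and -0.35, and *CYCS*, cytochrome c, at -0.03 and -0.07.

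*CS*, the gene of citrate synthase, had lower mRNA on both HIF2α-KD arrays, which do not measure mitochondrial content. It had 1677 in control normoxia and 1004 in HIF2α-KD normoxia, and 1402 and 845 in hypoxia. The knockdown differences were -0.73 and -0.72, from pairs that share no array, and the limma cell line term had an adjusted p of 0.168, which missed the threshold.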
